A study of Mus musculus with 3 samples.

Results

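C0 is a cluster of donor CD4+ T cells from the spleens of mice with an allogeneic bone marrow transplant, described in the study as effector cells with high *Cd226*. Its members were taken from the deposited table of CD4+ cells as the cells with cluster number 0 that were not marked as TEa cells. This gave 1856 C0 cells out of 10091 CD4+ cells without TEa cells and out of 21204 T cells in all, and 26 TEa cells of the same cluster were left out. B6D2F1 mice were irradiated and received B6 bone marrow, polyclonal B6 T cells and a small number of TEa T cells, which carry a transgenic T cell receptor against a recipient peptide. All groups shared this transplant. The recipients were given saline, cyclosporine A (CSA) every day at a dose of 5 or 50 mg/kg from day 0 to day 6, and spleens were taken on day 7. Each group had 6 mice, whose spleens were combined in pairs into 3 pools marked by hashtag antibodies. CD4+ and CD8+ donor T cells were sorted, mixed at equal numbers and run in 1 droplet capture per group, so a capture and its dose cannot be told apart by any comparison made here. The ages of the mice are not given in the sources used here.

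CSA binds cyclophilin and blocks calcineurin, the phosphatase that releases NFAT transcription factors into the nucleus after T cell receptor signalling. Effector CD4+ T cells of the Th1 type use the transcription factor T-bet, encoded by *Tbx21*, together with receptors for IL-12 and IL-18 and chemokine receptors that take them to inflamed tissue. *Cd226* encodes a costimulatory receptor that shares its ligands with the inhibitory receptor encoded by *Tigit*.

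The 5′ libraries also gave T cell receptor sequences, and 1342 C0 cells had a clonotype. The clonotypes with the most C0 cells are shown because they tie C0 to the other CD4+ clusters. Each line gives the junction of a receptor chain, 5′ to 3′ as deposited. The capitals mark the CDR3, the part of the chain that meets the peptide. The first and last codons of the junction, which flank the CDR3, are in lower case.
TRAV10N and TRAJ12, alpha chain of the first clonotype: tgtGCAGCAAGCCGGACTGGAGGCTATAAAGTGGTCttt
TRBV10 and TRBJ2-7, beta chain of the first clonotype: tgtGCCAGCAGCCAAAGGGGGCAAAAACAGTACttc
TRAV4D-4 and TRAJ22, alpha chain of the second clonotype: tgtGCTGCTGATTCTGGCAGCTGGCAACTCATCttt
TRBV15 and TRBJ2-3, beta chain of the second clonotype: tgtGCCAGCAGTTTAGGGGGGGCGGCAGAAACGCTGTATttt
TRAV4D-4 and TRAJ4, alpha chain of the third clonotype: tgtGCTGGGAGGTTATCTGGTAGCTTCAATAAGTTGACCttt
TRBV16 and TRBJ2-5, beta chain of the third clonotype: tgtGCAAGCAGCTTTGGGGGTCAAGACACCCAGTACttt
TRAV14D-3-DV8 and TRAJ34, alpha chain of the shared clonotype: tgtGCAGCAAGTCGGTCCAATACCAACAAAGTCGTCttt
TRBV14 and TRBJ2-7, beta chain of the shared clonotype: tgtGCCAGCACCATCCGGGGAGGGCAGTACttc

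The first clonotype held 27 CD4+ cells, of which 10 were in C0, 6 in C6, 4 in C5 and 3 in C7. The second also held 27 cells, with 10 in C0, 6 in C5, 6 in C6 and 3 in C3. Both were found in saline pools, with 26 of the 27 cells in saline pool 1. The third held 12 cells, all in CSA 5 mg/kg pool 2, with 7 in C0 and 4 in C3. The last was the 1 clonotype of C0 that was found in all 3 groups, with 6 cells in 4 pools, 3 of them in C0. C3, C5 and C6 are counted here as the cycling clusters, since *Top2a*, a replication gene, was 642, 371 and 1427 CPM (UMIs of the gene out of every 1000000 UMIs) there on average and at most 137 CPM in any other CD4+ cluster. The larger C0 clonotypes thus spanned non-cycling and cycling clusters. Among 875 clonotypes with both chains and a C0 cell, 49 had at least 2 C0 cells, 23 were found in more than 1 pool and 3 in more than 1 group. A nucleotide sequence found in more than 1 pool may be a recurrent receptor or a cell given the wrong hashtag, and these cannot be told apart. Of the 10371 CD4+ cells, 96 carried a barcode that was also found in another capture, and the cause of this was not tested. Between 0 and 15 C0 cells per pool had a second hashtag at 0.5 or more of the strongest.

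In the saline pools, cells of the cycling clusters often carried a clonotype that was also found in C0 of the same pool. The share was 31.4%, 18% and 12.5% of C3 cells, 29.1%, 12% and 14.5% of C5 cells and 24.8%, 17.3% and 9.40% of C6 cells in saline pools 1 to 3. It was 8.05% to 10.8% in C1, 1.34% to 5.5% in C2, 2.96% to 6.40% in C4 and 14%, 6.67% and 2.44% in C7. In saline pool 3, C6 at 9.40% was close to C1 at 8.65%. These shares depend on how many C0 cells a pool had and are a description. Within C0, the percentage of cells whose clonotype also had a cell outside C0 lay between 17.4% and 23.7% in all 9 pools, with no trend over the doses (exact Jonckheere-Terpstra permutation test, adjusted p = 0.831). The percentage of C0 cells in a clonotype of at least 2 C0 cells was 16%, 13.6% and 12.7% in the saline pools, 6.49%, 7.37% and 7.02% at 5 mg/kg and 3.76%, 9.01% and 8.42% at 50 mg/kg. Saline pools lay above all pools of both doses, but over the doses the trend missed the threshold (exact trend test, adjusted p = 0.368), and the gap was not there after each pool was thinned to 77 cells with a clonotype. Thinned values were 12.2%, 5.5% and 6.20% with saline and 2.72%, 6.22% and 6.81% at 50 mg/kg (adjusted p = 0.831, exact trend test). Simpson's index, the chance that a pair of cells share a clonotype, was 44.3, 7.93 and 10.3 per 10000 with saline, 13.7, 47.0 and 10.9 at 5 mg/kg and 4.56, 8.19 and 8.96 at 50 mg/kg. No trend passed (adjusted p = 0.582, exact trend test), and 1 pool of the saline group and 1 of the 5 mg/kg group stood far above the rest. The most used beta V gene in C0 was TRBV16, at 11% of C0 cells with a beta chain and 9.89% of the other CD4+ cells. None of 15 V genes passed an exact sign-flip test of C0 against the other CD4+ cells of the same pools, and none did at an unadjusted p under 0.05. Over the doses none passed the exact trend test after adjustment and 2 did before it, TRBV13-3 and TRBV2, which were named after their values were seen.

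The number of C0 cells per pool was 309, 361 and 371 with saline, 118, 151 and 162 at 5 mg/kg and 155, 122 and 107 at 50 mg/kg. Set against C1, the less activated effector cluster, C0 made up 75.0%, 74.7% and 72.6% of C0 and C1 cells with saline. It made up 43.7%, 48.9% and 44.9% at 5 mg/kg and 38.0%, 30.9% and 29.4% at 50 mg/kg. No pool of a group overlapped with a pool of another group, and the exact two-sided trend test gave an adjusted p of 0.0036 over 3 ways to count the share, from p = 0.00119, which is the smallest this test can give. Among CD4+ cells outside the cycling clusters C3, C5 and C6, C0 was 32.9% ± 1.56 (SD, n = 3 pools) in the saline group, 18.9% ± 1.97 at 5 mg/kg and 18.9% ± 4.56 at 50 mg/kg. The mean fall from saline was as large at the lower dose as at the higher. The trend over the doses passed (adjusted p = 0.0214, exact trend test), which does not test whether the 2 falls were equal. With 3 pools against 3, the exact permutation test of a dose against saline cannot go below p = 0.1, which each of these comparisons reached.

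C0 of the 5 mg/kg group stood apart in depth, and this bears on every value of that group. The median number of unique molecular identifiers (UMIs) per C0 cell was 2702, 2707 and 2897 with saline, 1881, 2391 and 3456 at 5 mg/kg and 4941, 5571 and 6046 at 50 mg/kg. In the other CD4+ cells it was 3227 to 3376, 4307 to 4745 and 5847 to 6366. At 5 mg/kg, 55.9%, 42.4% and 34.6% of the C0 cells of the 3 pools had fewer than 2000 UMIs, against 9.61% to 11.4% of the other CD4+ cells of these pools. These 186 shallow C0 cells had a median of 4.33% mitochondrial UMIs, against 1.51% in the 245 deeper C0 cells of the group. Summed over the shallow cells, *Malat1*, a nuclear RNA, was 7535 CPM, *Cd226* 294 CPM and *Ccl5* 941 CPM, and over the deeper cells they were 2679, 114 and 3286 CPM. With saline, the 110 shallow and 931 deeper C0 cells had 226 and 257 CPM of *Cd226*. With cells of at least 2000 UMIs alone, C0 was 73.3% ± 0.734 (SD, n = 3 pools) of C0 and C1 cells in the saline group, 32.1% ± 5.53 at 5 mg/kg and 31.8% ± 4.23 at 50 mg/kg. The separation of 50 mg/kg from saline was then as large as before and that of 5 mg/kg larger, but the doses no longer differed from each other and no trend passed (exact trend test, adjusted p = 0.221). The part of damaged cells in these values was not tested.

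**Figure D1:**
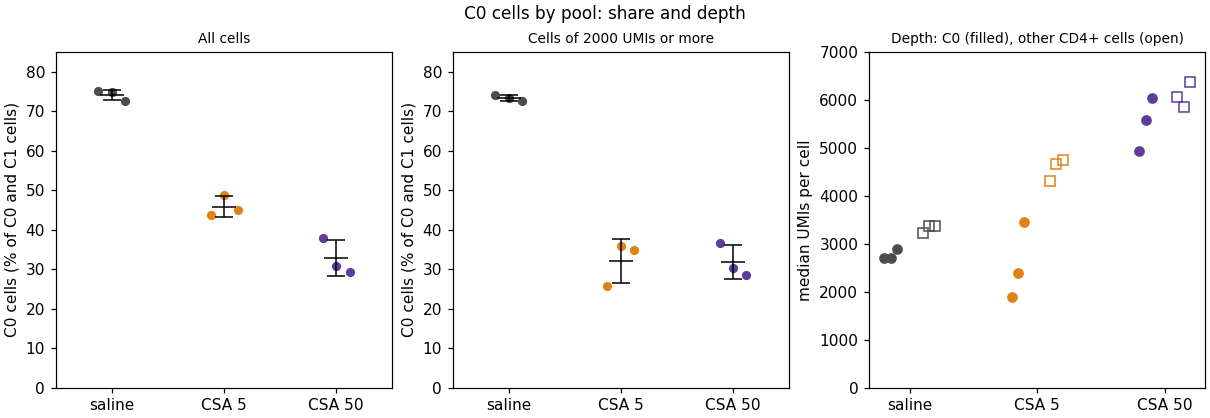
Each point is 1 pool and bars are means with SD (n = 3 pools). The left and middle panels give C0 as a percentage of C0 and C1 cells, over all cells and over cells of at least 2000 UMIs, and the right panel gives the median number of UMIs per cell in C0 and in the other CD4+ cells, where the 5 mg/kg pools of C0 lie between 1881 and 3456 and below the other CD4+ cells of the same pools.

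C0 cells carried the labelled identity. The CD4 antibody tag had a median of 311 to 543 counts per cell over the pools and the CD8 tag a median of 4 to 7, and *Cd8a* had 0 UMIs in all C0 cells. *Bhlhe40*, which encodes a transcription factor needed for inflammatory cytokine production, was 388 CPM in C0 on average over the 9 pools and *Tbx21* 161 CPM, both the highest of the 13 CD4+ clusters. *Cd226* was 155 CPM, second to 184 CPM in C6, and *Cxcr6*, a chemokine receptor of tissue-seeking effector cells, was 548 CPM, second to 712 CPM in C12. In C1 *Cxcr6* was 497 CPM, close to C0, and at 50 mg/kg it was 377 CPM in C0 and 379 CPM in C1. All 4 markers were higher in C0 than in the other CD4+ cells of the same pool in 9 of 9 pools, with median log2 ratios of 0.87 for *Cd226*, 1.02 for *Bhlhe40*, 0.56 for *Tbx21* and 1.01 for *Cxcr6*. The cluster was made from these counts, so such ratios describe it and do not test it. The lead did not hold at each dose: C0 ranked first for *Cd226* with saline at 256 CPM, second at 5 mg/kg at 155 CPM and below 2 other clusters at 50 mg/kg at 52.7 CPM. At 50 mg/kg *Bhlhe40* was 203 CPM in C0 and 233 CPM in C1, and 3 clusters lay above C0. For *Tbx21*, C0 was second with saline, at 210 CPM against 254 CPM in C11. It was also second at 50 mg/kg, at 136 CPM against 140 CPM in C12. The averages of C6, C11 and C12 cover 8, 5 and 3 pools and not all 9. In C9, the cluster with the most *Ccr7*, a homing receptor of naive T cells, *Cd226* was 63.5, 39.5 and 20.1 CPM in the 3 groups and *Bhlhe40* 71.4, 31.1 and 8.61 CPM. For genes that naive cells should lack, levels at or below those of C9 are not read here as expression by C0.

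Beyond the markers, 24 genes were higher in C0 in every pool with a median log2 ratio of at least 1. They included genes of inflammatory and cytotoxic effector cells. *Il12rb2*, the inducible chain of the IL-12 receptor, was 145 CPM in C0 and 58.5 CPM in the other CD4+ cells, and *Fasl*, a death ligand, was 62.6 and 23.9 CPM. *Ccl5*, a chemokine gene, was 4008 CPM in C0 and 1192 CPM elsewhere. *Csf1*, a growth factor of macrophages, had the highest median log2 ratio, 1.82. The other named genes of this kind were *Sytl2*, *Ahnak*, *Asb2*, *Adam8*, *Serpina3f*, *Bcl2l11*, *Slc2a3*, *Gpr55*, *Tmem163*, *Gm4070*, *Chsy1*, *Il10ra*, *Tnfaip3*, *Slamf7* and *Icam1*. *Tcf7*, a gene of resting cells, was 75.3 CPM in C0 against 171 CPM in the other CD4+ cells and lower in 9 of 9 pools. *Top2a* was 102 against 372 CPM. Set against C1 alone, 97 genes were higher in every pool with a median log2 ratio of at least 1, with *Ccl4* at 3.59 and *Ccl5* at 2.12.

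Counts were then summed over the C0 cells of each pool, which gave 317222 to 1147931 UMIs per pool, and compared between groups in edgeR with its quasi-likelihood test. Values below are CPM with TMM scaling, n = 3 pools per group, and adjusted p-values are Benjamini-Hochberg values over all 7664 genes tested. A threshold of 0.05 was passed by 1245 genes at 5 mg/kg, which is 16.2% of those tested, with 816 of them up (10.6%) and 429 down (5.6%). The higher dose called 4199 genes (54.8%), 2040 up (26.6%) and 2159 down (28.2%). Between the doses 2102 genes passed (27.4%), of which 983 (12.8%) were up and 1119 (14.6%) down at the higher dose. The background is therefore high, and a gene past the threshold at 50 mg/kg is 1 of many. Both doses were set against the same saline pools. With scaling by library size alone, the median of all log2 changes went from -0.01 to -0.29 at 5 mg/kg, from -0.03 to -0.50 at 50 mg/kg and from -0.01 to -0.19 between the doses, and the calls then split into 380 up and 1719 down at the lower dose, 924 up and 3822 down at the higher dose and 470 up and 1614 down between them. Changes are given relative to the TMM scale. The pools of 2 groups did not overlap for 30.2% of genes at 5 mg/kg, 61.2% at 50 mg/kg and 39.3% between the doses. Cells were assigned to C0 by their expression under all doses, so cells in which these genes moved far enough to leave C0 are not in these sums.

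Of the 4 marker genes of C0, 3 fell at 50 mg/kg, and the result for *Tbx21* rested on 1 pool. *Cd226* was 243, 188 and 230 CPM in the saline pools, 176, 168 and 135 CPM at 5 mg/kg and 82.0, 49.9 and 54.2 CPM at 50 mg/kg. No pool of a group overlapped with another group. The log2 change was -0.49 (standard error, SE, 0.14, adjusted p = 0.0081, edgeR) at 5 mg/kg and -1.80 (SE 0.15, adjusted p = 2.43e-14, edgeR) at 50 mg/kg. The fall at 5 mg/kg rested on its pools, since the adjusted p was 0.175 without 5 mg/kg pool 3 and 0.0528 without saline pool 1, while in cells of at least 2000 UMIs the log2 change was -0.82 (adjusted p = 3.10e-05, edgeR). *Bhlhe40* (chromosome 6, 108660629 to 108666925, plus strand, GRCm38, a protein-coding gene) was 489, 480 and 519 CPM with saline and 300, 233 and 183 CPM at 50 mg/kg, which gave a log2 value of -1.04 (SE 0.11, adjusted p = 6.04e-11, edgeR). In the 5 mg/kg pools it was 376, 436 and 384 CPM, below all saline pools (log2 change -0.31, adjusted p = 0.0446, edgeR), a call that was lost in DESeq2 and in 6 of the 9 fits without 1 pool. *Cxcr6* (chromosome 9, 123806475 to 123811760, plus strand) was 566, 513 and 594 CPM in the saline pools, 687, 564 and 664 CPM at 5 mg/kg and 424, 454 and 458 CPM at 50 mg/kg. It fell at 50 mg/kg by 0.33 on the log2 scale (adjusted p = 0.0049, edgeR) and did not pass at 5 mg/kg, where the log2 value was 0.19 with TMM scaling and -0.08 with library size scaling. In cells of at least 2000 UMIs it passed as higher at 5 mg/kg (0.24, adjusted p = 0.0478, edgeR). *Tbx21* (chromosome 11, 97098071 to 97115331, minus strand) was 181, 191 and 171 CPM with saline and 212, 134 and 135 CPM at 50 mg/kg, and its log2 changes of -0.35 at 5 mg/kg (adjusted p = 0.0897, edgeR) and -0.16 at 50 mg/kg (adjusted p = 0.298, edgeR) did not pass. The groups overlapped for *Tbx21* at 50 mg/kg through pool 1, without which its log2 value was -0.45 and passed (adjusted p = 0.0077, edgeR), and with library size scaling it was -0.62 (adjusted p = 0.000104, edgeR). Without 50 mg/kg pool 2 or 3 the value was -0.06 or -0.07 and did not pass. At 5 mg/kg *Tbx21* passed as lower in 4 alternatives, among them cells of at least 2000 UMIs (-0.40, adjusted p = 0.0454, edgeR).

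Among the genes with the largest rises at 50 mg/kg were surface proteins and effector molecules of differentiated T cells. *Ly6c2*, which encodes Ly6C, was 227, 236 and 235 CPM in the saline pools, 262, 379 and 376 CPM at 5 mg/kg and 2731, 3096 and 2430 CPM at 50 mg/kg. *Klrg1*, an inhibitory lectin-like receptor of late effector cells, was 21.1, 18.2 and 21.8 CPM in the saline pools, 33.9, 42.5 and 30.0 CPM at 5 mg/kg and 268, 309 and 211 CPM at 50 mg/kg. Both stood far above saline at the higher dose, with log2 changes of 3.56 (SE 0.11, adjusted p = 1.17e-30, edgeR) and 3.68 (SE 0.16, adjusted p = 7.03e-25, edgeR). *Ccl5*, a chemokine stored and secreted by effector and memory T cells, was 1398, 1272 and 1309 CPM in the saline pools, 1556, 3923 and 2937 CPM at 5 mg/kg and 9451, 9538 and 8613 CPM at 50 mg/kg. It rose at both doses, by log2 changes of 1.09 (adjusted p = 4.23e-08, edgeR) and 2.79 (adjusted p = 1.10e-21, edgeR), and 5 mg/kg pool 1, the pool with the most shallow cells, was close to saline. *Lmna*, encoding lamin A and C of the nuclear envelope, went from 3.65 ± 1.83 CPM in saline pools and 4.03 ± 2.25 CPM at 5 mg/kg to 143 ± 51.8 CPM (SD, n = 3 pools) at 50 mg/kg, a log2 change of 5.25 (SE 0.29). *Ctla2a*, *Chchd10*, *Nr4a1*, *S100a4*, *S100a6* and *Anxa1* made up the rest of the 10 largest rises, with log2 changes between 1.96 and 3.46. *Ly6c2* lies in a cluster of near-identical genes on chromosome 15 (75108158 to 75111970, minus strand), and its neighbour *Ly6c1* went from 2.64 CPM to 26.1 CPM at 50 mg/kg, so how reads were split between them cannot be told from these counts.

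Effector molecules did not move together. *Gzmb*, encoding granzyme B, was 757, 748 and 727 CPM in the saline pools, 875, 981 and 996 CPM at 5 mg/kg and 1865, 1811 and 1719 CPM at 50 mg/kg, and rose at the higher dose (log2 change 1.27, SE 0.09, adjusted p = 1.36e-16, edgeR). Its log2 change of 0.36 at the lower dose passed with TMM scaling (adjusted p = 0.00598, edgeR) and was 0.08 with library size scaling (adjusted p = 0.458, edgeR). *Gzma*, encoding granzyme A, was 371, 369 and 390 CPM with saline and 71.7, 46.7 and 87.4 CPM at 50 mg/kg (log2 change -2.46, adjusted p = 1.94e-19, edgeR). Its saline level was close to the 417 CPM of C9, a cluster with naive markers, and the part of free RNA in its level was not tested. *Ifng* was 86.4, 89.3 and 84.2 CPM with saline and 108, 93.4 and 126 CPM at 50 mg/kg and did not pass (log2 value 0.33, adjusted p = 0.0521, edgeR), with a value of -0.14 under library size scaling. Among other members of the list, *Il21* went from 39 CPM in the saline group to 5 CPM at 50 mg/kg, *Tnfsf8* 87 and 11 CPM and *Csf2* 29 and 9 CPM, although the call for *Csf2* was lost in DESeq2 (adjusted p = 0.0988). *Ccl1*, a chemokine of activated T cells, had 301 UMIs over the saline pools, 204 at 5 mg/kg and 0 at 50 mg/kg, which is at least 52.9-fold lower than saline with a floor of 3 UMIs over the group. Of 20 measured genes of the list of cytokines, chemokines and cytotoxic effectors, 9 were higher and 0 lower at 5 mg/kg, and 4 were higher and 9 lower at 50 mg/kg (median log2 changes 0.37 and -0.06). Of all genes tested, 10.6% were higher and 5.6% lower at 5 mg/kg, and 26.6% were higher and 28.2% lower at 50 mg/kg. List counts here and below are to be set against these shares.

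Some receptor genes for cytokines of Th1 effector cells were lower at 50 mg/kg. *Il18r1*, a chain of the IL-18 receptor, was 478, 403 and 401 CPM in the saline pools, 410, 260 and 267 CPM at 5 mg/kg and 49.8, 30.6 and 40.2 CPM at 50 mg/kg. It fell at 50 mg/kg by 3.39 on the log2 scale (SE 0.16, adjusted p = 5.79e-23, edgeR), and its partner *Il18rap* fell by 0.97. *Il12rb2* was 166, 147 and 150 CPM with saline and 119, 134 and 128 CPM at 50 mg/kg, a log2 change of -0.28 (adjusted p = 0.0475, edgeR) that was lost in DESeq2 and in 6 of the 9 fits without 1 pool. *Ifngr1*, a chain of the interferon-γ receptor, fell from 707 to 326 CPM. The chemokine receptor *Cxcr3*, a T-bet target, was 296, 259 and 276 CPM with saline and 602, 608 and 601 CPM at 50 mg/kg (log2 change 1.13, adjusted p = 2.75e-14, edgeR). *Hopx*, *Id2* and *Eomes*, transcriptional regulators of effector and memory cells, also rose at 50 mg/kg, by 1.42, 0.89 and 1.83 on the log2 scale. Of 22 measured Th1 factors and receptors, 2 were higher and 6 lower at 5 mg/kg and 7 were higher and 9 lower at 50 mg/kg, with median log2 changes of -0.20 and -0.18 where the medians of all genes were -0.01 and -0.03.

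Inhibitory receptors were lower in C0 at the higher dose and in part higher at the lower dose. *Pdcd1*, encoding PD-1, was 322, 256 and 229 CPM in the saline pools, 296, 332 and 362 CPM at 5 mg/kg and 26.3, 33.8 and 59.4 CPM at 50 mg/kg, and *Tox*, the exhaustion-associated factor, was 171, 174 and 139 CPM, then 117, 136 and 155 CPM, then 16.1, 24.1 and 19.2 CPM. The 50 mg/kg pools lay below all other pools for both genes, with log2 changes of -2.77 (adjusted p = 1.62e-18, edgeR) and -3.02 (adjusted p = 2.72e-18, edgeR). *Tigit* was 285, 268 and 277 CPM in the saline pools, 348, 430 and 399 CPM at 5 mg/kg and 132, 156 and 194 CPM at 50 mg/kg. It rose at 5 mg/kg (log2 change 0.52, adjusted p = 0.000359, edgeR), a call lost with library size scaling (0.24, adjusted p = 0.0844, edgeR), and fell by 0.79 at 50 mg/kg (adjusted p = 2.00e-07, edgeR). *Lag3* went from 106 to 166 and 55.8 CPM, with the rise at 5 mg/kg lost without pool 3 (adjusted p = 0.117, edgeR), and *Ctla4* from 94.2 to 159 and 115 CPM. *Lilrb4a*, a leukocyte immunoglobulin-like receptor, had 185 UMIs with saline and 3 at 50 mg/kg, a ratio of 32.5 with a 95% counting interval of 11 to 159. Of 15 measured members of this list, 3 were higher and 0 lower at 5 mg/kg, and 0 were higher and 11 lower at 50 mg/kg (medians -0.02 and -0.93). Costimulatory and activation receptors were less one-sided, with 4 of 19 up and 3 down at 5 mg/kg and 9 up and 6 down at 50 mg/kg (medians 0.11 and 0.25). Over all genes, 10.6% were up and 5.6% down at 5 mg/kg, and 26.6% were up and 28.2% down at 50 mg/kg.

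Genes of the calcineurin and NFAT pathway, the direct target of CSA, were lower where they passed. *Nfatc1* was 364, 393 and 345 CPM with saline and 211, 272 and 208 CPM at 50 mg/kg (log2 change -0.67, adjusted p = 1.73e-06, edgeR), with no overlap of pools. *Nfatc2* was 160, 160 and 135 CPM in the saline pools, 102, 59.6 and 81.8 CPM at 5 mg/kg and 61.5, 43.5 and 47.2 CPM at 50 mg/kg, log2 changes of -0.93 and -1.56. *Nrgn*, which encodes a calmodulin-binding protein, had 289 UMIs with saline and 1 at 50 mg/kg, a ratio of 152 with a 95% counting interval of 27.1 to 6040. Of 11 measured members, 0 were higher and 4 lower at 5 mg/kg, and 0 were higher and 8 lower at 50 mg/kg (medians -0.38 and -0.70). Among all genes, 10.6% were higher and 5.6% lower at 5 mg/kg, and 26.6% were higher and 28.2% lower at 50 mg/kg. In the longest of 4 equal groups of genes by length the medians were -0.23 and -0.67. The part of transcript length in the values of this list was not tested. Of 17 genes of calcium entry and calmodulin, 0 were up and 3 down at 5 mg/kg and 3 up and 7 down at 50 mg/kg (medians -0.12 and -0.21). Immediate early and other receptor-induced factors went both ways. *Nr4a1*, an early target of receptor signals, was 24.1, 27.3 and 32.3 CPM in the saline pools, 37.0, 70.2 and 18.4 CPM at 5 mg/kg and 266, 126 and 154 CPM at 50 mg/kg, and *Myc* and *Irf8* rose at 50 mg/kg by 0.94 and 1.33 on the log2 scale. *Egr1* was 152, 46.7 and 80.4 CPM at 50 mg/kg, where pool 1 carried its call, since the adjusted p was 0.338 without that pool (edgeR). *Fosb*, *Rel* and *Ikzf3* fell by 1.78, 1.03 and 1.61. Of the 17 measured members, 3 were higher and 0 lower at 5 mg/kg, and 6 were higher and 8 lower at 50 mg/kg (medians 0.13 and -0.35). Early response genes can also move with tissue handling, and the summed level of 15 dissociation genes in C0 was 4094 to 4149 CPM in the saline pools, 3937 to 4093 CPM at 5 mg/kg and 4341 to 4943 CPM at 50 mg/kg; its part in these values was not tested.

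*Il7r*, the receptor for the survival cytokine IL-7, was 577, 582 and 651 CPM in the saline pools, 576, 472 and 305 CPM at 5 mg/kg and 107, 95.0 and 129 CPM at 50 mg/kg (log2 change -2.46, adjusted p = 5.54e-20, edgeR). *Bcl2*, an inhibitor of cell death, fell from 133 to 39.5 CPM and *Tcf7* from 100 to 42.5 CPM. *Klf2*, a factor of quiescence, was 730, 753 and 682 CPM with saline and 1073, 1207 and 1041 CPM at 50 mg/kg (log2 change 0.62, adjusted p = 3.21e-07, edgeR), with a value of 0.15 and adjusted p = 0.103 under library size scaling. The pro-apoptotic *Bax* and *Bad* rose by 1.16 and 1.64 on the log2 scale. Of 24 measured memory and quiescence genes, 2 were higher and 6 lower at 5 mg/kg and 9 were higher and 6 lower at 50 mg/kg (medians -0.10 and 0.06). Of 21 survival and apoptosis genes, 3 were higher and 0 lower at 5 mg/kg and 7 were higher and 5 lower at 50 mg/kg (medians 0.05 and 0.13). Of all genes, 26.6% were higher and 28.2% lower at 50 mg/kg, so neither list is read as moving apart from the rest at that dose. At 5 mg/kg 10.6% of all genes were higher and 5.6% lower, and the 6 of 24 memory and quiescence genes called lower were a larger share. The integrin genes *Itga4* and *Itgb1*, which together form VLA-4, fell at 50 mg/kg by 1.30 and 1.86. *Itga4* was 1446, 1280 and 1245 CPM in the saline pools, 977, 832 and 920 CPM at 5 mg/kg and 479, 573 and 563 CPM at 50 mg/kg. *Cd5* and *Cd6*, which set the strength of receptor signalling, rose by 1.23 and 1.30. *Tnfrsf4*, encoding OX40, was 137, 165 and 247 CPM in the saline pools, 339, 328 and 466 CPM at 5 mg/kg and 233, 219 and 208 CPM at 50 mg/kg, and its rise at 5 mg/kg passed (log2 change 1.05, adjusted p = 4.11e-08, edgeR).

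Energy metabolism moved mainly through oxidative phosphorylation (OXPHOS). Of 75 measured OXPHOS genes, 59 were higher and 0 lower at 5 mg/kg, and 71 were higher and 0 lower at 50 mg/kg, with median log2 changes of 0.62 and 1.02. As a share of all UMIs of C0 the list was 1.80% ± 0.0275 in saline pools, 2.39% ± 0.249 at 5 mg/kg and 2.67% ± 0.0221 at 50 mg/kg (SD, n = 3 pools), against 2.06%, 2.79% and 2.82% in the other CD4+ cells. Cytosolic ribosomal protein genes moved alike, with 86 of 91 measured genes up and 1 down at 50 mg/kg and shares of UMIs of 12.5%, 18.5% and 20.1%. *Rpl38*, the largest rise at 5 mg/kg, was 451, 485 and 500 CPM with saline and 1402, 1734 and 1726 CPM at 5 mg/kg, and *Atp5k*, a subunit of ATP synthase, was 45.2, 54.6 and 49.6 CPM and then 123, 166 and 179 CPM. These are short transcripts. In C0 the log2 change at 50 mg/kg had a median of 0.49 in the shortest of 4 equal groups of genes by length and -0.67 in the longest, with median transcript lengths of 786 and 4456 bases, and the OXPHOS genes had a median length of 659 bases. The Spearman correlation of log2 change with length across genes, which are not independent, was -0.51 for the higher dose and -0.43 for the lower dose, and the part of transcript length in the OXPHOS and ribosomal values was not tested. Glycolysis genes went both ways, with 4 of 15 up and 1 down at 5 mg/kg and 7 up and 4 down at 50 mg/kg (medians 0.10 and 0.33). The shares of all genes were 10.6% up and 5.6% down at 5 mg/kg and 26.6% up and 28.2% down at 50 mg/kg. *Gapdh* was 259, 254 and 281 CPM with saline and 754, 687 and 765 CPM at 50 mg/kg, *Ldha* rose from 797 to 1399 CPM, and *Hif1a*, a regulator of glycolysis, fell from 310 to 144 CPM.

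Histone genes and genes of DNA replication were lower at 50 mg/kg almost throughout. Replication-dependent histone genes took 0.696% ± 0.0371 of the UMIs of C0 in saline pools, 0.426% ± 0.0891 at 5 mg/kg and 0.0438% ± 0.00253 at 50 mg/kg (SD, n = 3 pools), and 30 of 31 measured histone genes were lower at 50 mg/kg while 1 was higher. *Hist1h3e* (chromosome 13, 23561534 to 23562369, minus strand) was 447, 448 and 403 CPM with saline and 10.2, 19.3 and 15.7 CPM at 50 mg/kg. Of 29 cell cycle genes, 1 was higher and 1 lower at 5 mg/kg and 0 were higher and 23 lower at 50 mg/kg (medians -0.10 and -1.46). *Top2a* fell from 121 to 31.0 CPM and *Rrm2* from 73.8 to 10.4 CPM. C0 was not among the cycling clusters, and the part of free RNA in these values was not tested. In C9 *Hist1h3e* was 611, 299 and 11.5 CPM and *Rrm2* 91.3, 42.4 and 5.74 CPM in the 3 groups, at or above C0 in the saline capture. Without TMM scaling, *Top2a* was 133, 109 and 32.8 CPM in C9 and 141, 140 and 26.3 CPM in C0. Histone genes of this kind are near-identical copies and most of their transcripts lack a poly(A) tail, which makes the values of individual histone genes uncertain.

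**Figure D2:**
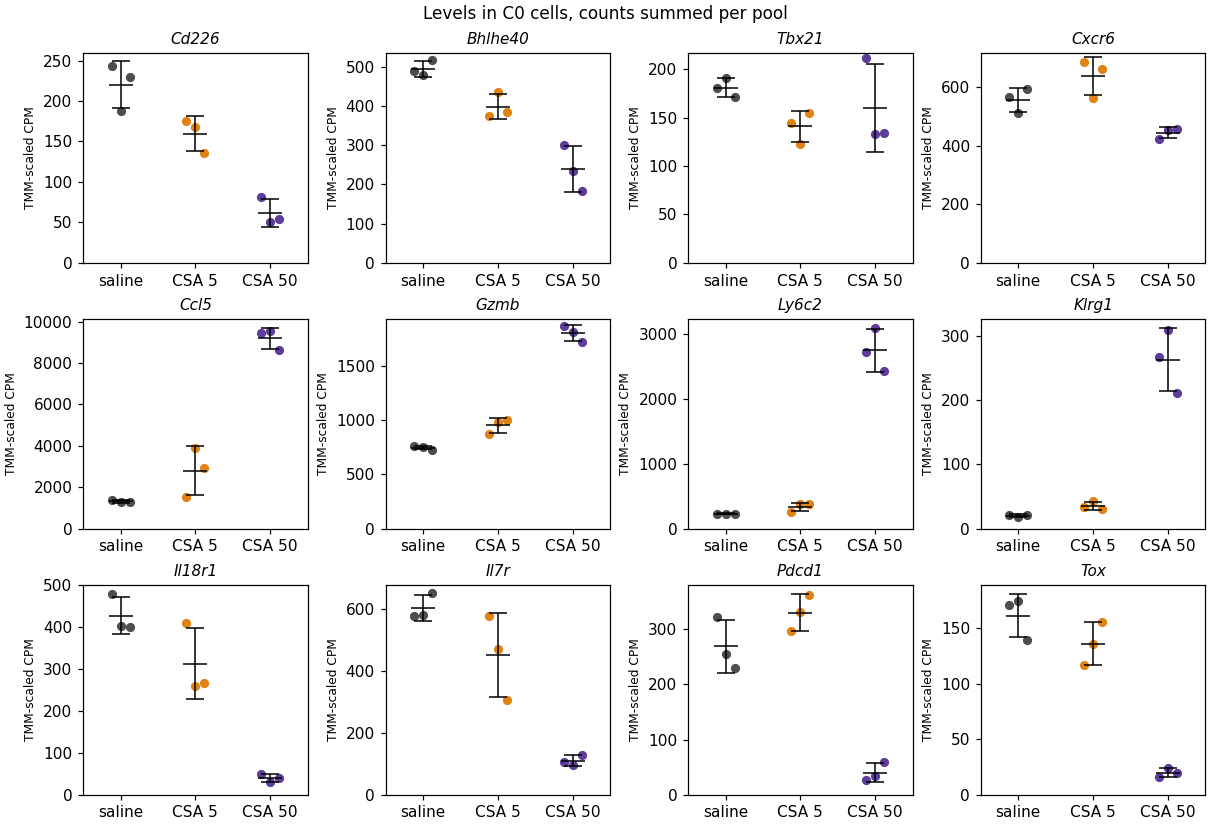
TMM-scaled CPM of 12 genes in C0, with 1 point per pool and bars for the mean and SD (n = 3 pools per group); each axis starts at 0. *Ccl5*, *Gzmb*, *Ly6c2* and *Klrg1* are highest in the 3 pools of CSA 50 mg/kg, *Cd226*, *Bhlhe40*, *Il18r1*, *Il7r*, *Pdcd1* and *Tox* are lowest there, and the *Tbx21* pools of the groups overlap.

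The interferon-inducible transmembrane genes *Ifitm1*, *Ifitm2* and *Ifitm3*, which limit the entry of viruses and are neighbours on chromosome 7 (140954837 to 141010770), gave 3 of the 10 largest falls. *Ifitm1* was 367, 247 and 352 CPM in the saline pools, 262, 342 and 132 CPM at 5 mg/kg and 1.46, 0 and 3.49 CPM at 50 mg/kg. It had 1132 UMIs over the saline pools and 3 over the 50 mg/kg pools, a ratio of 199 with a 95% counting interval of 67.9 to 966. *Ifitm3* was 187, 146 and 171 CPM in the saline pools, 265, 264 and 202 CPM at 5 mg/kg and 5.85, 4.83 and 1.75 CPM at 50 mg/kg. The list of interferon-stimulated genes, which does not hold these 3, moved both ways. *Ifi27l2a* rose from 679 to 2374 CPM and *Ly6a*, encoding Sca-1, from 1415 to 2938 CPM at 50 mg/kg, and of 22 measured members of the list 5 were higher and 3 lower at 5 mg/kg and 6 were higher and 4 lower at 50 mg/kg (medians 0.01 and 0.11), where 26.6% and 28.2% of all genes were higher and lower at 50 mg/kg. At 5 mg/kg 10.6% of all genes were higher and 5.6% lower.

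The largest rises at the lower dose were *Rpl38*, *S100a8*, *Atp5k*, *Dpm3*, *Rps28*, *Rps21*, *Sec61g*, *Rpl39*, *Ndufa3* and *Rps29*, with log2 changes between 1.51 and 1.76. *S100a8*, a gene of neutrophils and monocytes, was 36.2, 38.9 and 55.7 CPM with saline and 357, 76.6 and 75.1 CPM at 5 mg/kg, so pool 1 gave most of its rise, and its log2 change of 1.73 became 0.78 without that pool (adjusted p = 0.00841, edgeR). The 11 myeloid genes summed to 208 to 810 CPM at 5 mg/kg and 180 to 233 CPM in the saline pools, and the share of myeloid RNA in this pool was not tested further. The largest falls were *Klhl9*, *Hist1h1a*, *Stat5b*, *Sp1*, *Ap2b1*, *Hist2h2bb*, *Rassf2*, *Crot*, *Ppfia1* and *Midn*, with log2 changes between -1.17 and -0.97. *Stat5b*, which carries signals of IL-2 and IL-7, was 95.4, 82.7 and 85.7 CPM with saline and 24.6, 36.2 and 53.4 CPM at 5 mg/kg (log2 change -1.10, adjusted p = 5.67e-05, edgeR). In cells of at least 2000 UMIs, 2242 genes passed at 5 mg/kg, of which 1202 had passed with all cells, and 4216 passed at 50 mg/kg, of which 4076 had passed before. Between the doses 1045 genes passed, of which 978 were among the 2102 called with all cells, so most calls between the doses were not kept.

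Marker lists of other cells moved with dose in C0, and their part in the results above was not tested. The 12 B cell and plasma genes summed to 243 to 278 CPM in the saline pools, 243 to 284 CPM at 5 mg/kg and 422 to 483 CPM at 50 mg/kg, the 7 erythroid genes to 7.00 to 17.4, 6.04 to 15.6 and 25.8 to 41.5 CPM, and the 7 natural killer cell genes to 18.3 to 32.7, 14.0 to 28.4 and 30.2 to 57.3 CPM, with 3 of the natural killer genes at 0. The 9 follicular helper genes summed to 1102 to 1149 CPM in saline pools and to 481 to 613 CPM in 50 mg/kg pools. Of their 6 measured members, 5 were lower and 1 was higher at 50 mg/kg, against 28.2% and 26.6% of all genes. The 9 regulatory and Th17 genes summed to 313 to 342 CPM in saline pools and 104 to 126 CPM in 50 mg/kg pools. The 7 naive genes summed to 368 to 436 CPM in the saline pools, 228 to 265 CPM at 5 mg/kg and 288 to 349 CPM at 50 mg/kg. *Cd8b1* went from 166 CPM to 26.8 CPM at 50 mg/kg while *Cd8a* had no UMI, and C9 had 242 and 28.7 CPM. Fewer cells of a type within C0 and less RNA per cell cannot be told apart in sums over pools.

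**Figure D3:**
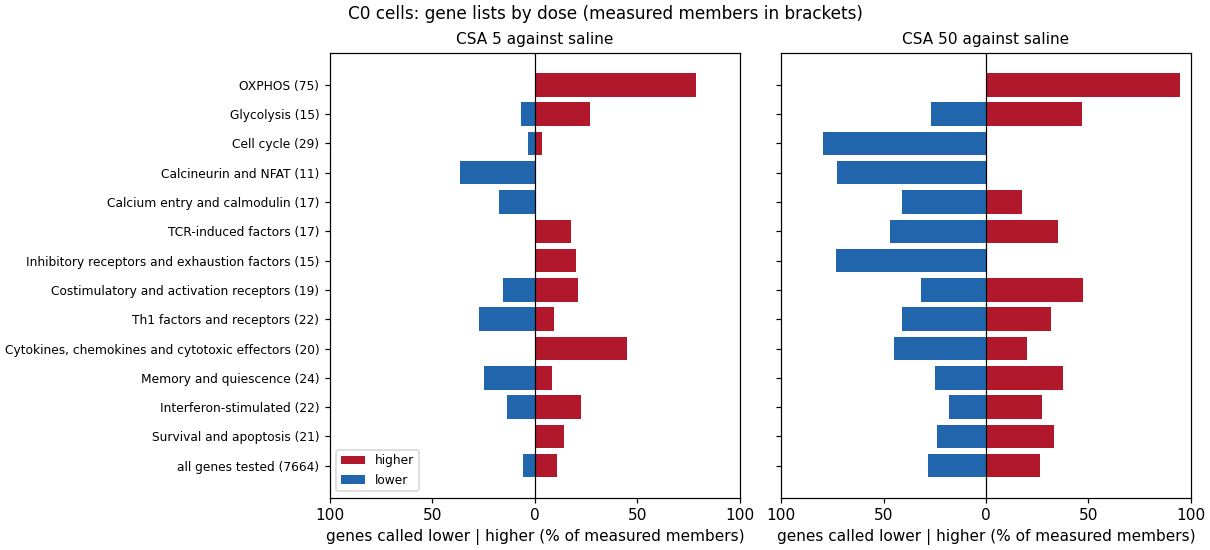
Percentage of the measured members of each gene list that were called lower (left of 0) or higher (right of 0) in C0 against saline, with the number measured in brackets, at an edgeR adjusted p under 0.05. OXPHOS genes were called higher at both doses (59 and 71 of 75), while inhibitory receptor and cell cycle genes were called lower at 50 mg/kg (11 of 15 and 23 of 29).

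Whether C0 responded differently from the other CD4+ cells of the same pools was tested as the change of C0 minus the change of the other cells, with pool as a block and over 9825 genes. The test called 134 genes at 5 mg/kg (1.36% of those tested), of which 90 had a higher (0.916%) and 44 a lower (0.448%) change in C0. At the higher dose it called 729 genes (7.42%), 417 with a higher (4.24%) and 312 with a lower (3.18%) change in C0. Most dose changes of C0 were therefore not shown to differ from those of the other CD4+ cells. This holds for *Cd226*, whose fall at 50 mg/kg was larger in C0 by 0.40 on the log2 scale without passing (adjusted p = 0.169, edgeR). The difference was -0.67 without 50 mg/kg pool 1, which passed (adjusted p = 0.0493, edgeR), and -0.26 without pool 2 (adjusted p = 0.57, edgeR). In plain CPM it went from 256 ± 33.2 to 52.7 ± 15.4 in C0 and from 126 ± 6.05 to 37.3 ± 1.00 in the other cells (SD, n = 3 pools). Against C1 alone, the difference of -1.18 passed (adjusted p = 0.000168, edgeR). *Bhlhe40* fell further in C0 (difference -0.74, adjusted p = 2.91e-06, edgeR), from 576 to 203 CPM against 244 to 154 CPM in the other cells. *Cxcr6* also fell further than in the other cells (difference -0.60, adjusted p = 1.76e-05, edgeR) but not further than in C1 (difference 0.08).

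The receptor genes *Il7r* and *Il18r1* fell further in C0, with differences of -1.77 (adjusted p = 6.17e-16, edgeR) and -1.51 (adjusted p = 3.86e-09, edgeR). *Il18r1* was 496 CPM in C0 and 207 CPM in the other cells with saline and 34.1 and 43.9 CPM at 50 mg/kg. *Ccl5* had a higher change in C0 than in the other cells at both doses. It went from 1541 to 2684 and 7799 CPM in C0 and from 852 to 576 and 2150 CPM in the other cells, differences of 1.28 (SE 0.12) and 1.11 (SE 0.12, adjusted p = 1.76e-11, edgeR).

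Several receptors and a cytokine of activated cells had a higher change in C0 than elsewhere at 50 mg/kg. *Tigit* went from 321 to 136 CPM in C0 and from 293 to 48.7 CPM in the other cells, a difference of 1.44 (SE 0.15, adjusted p = 1.18e-11, edgeR). *Icos*, a costimulatory receptor, went from 489 to 263 CPM in C0 and from 589 to 143 CPM elsewhere, a difference of 1.24 (SE 0.11, adjusted p = 4.98e-14, edgeR). In plain CPM *Ifng* was 101 ± 3.28 and 92.5 ± 13.6 in C0 and 100 ± 52.7 and 37.0 ± 3.91 in the other cells (SD, n = 3 pools), a difference of 1.33 (adjusted p = 8.67e-07, edgeR). The saline pools of the other cells were spread widely, and with TMM scaling *Ifng* was not lower in C0 at 50 mg/kg. *Tnfrsf9*, encoding the activation receptor 4-1BB, had the largest difference of this direction, 1.50 (SE 0.20, adjusted p = 6.12e-08, edgeR). *Nr4a1*, *Ikzf2*, *Egr1*, *Btla*, *Smco4* and *Chchd10* followed with differences of 1.11 to 1.48. Against C1 alone *Tnfrsf9*, *Nr4a1*, *Tigit*, *Ifng*, *Icos*, *Smco4* and *Chchd10* passed too, while *Ikzf2*, *Egr1* and *Btla* did not, and *Nr4a1* and *Egr1* did not pass in DESeq2. Without 50 mg/kg pool 1 the differences were 0.95 for *Nr4a1* and 0.48 for *Egr1* (adjusted p = 0.326, edgeR), and *Ikzf2* did not pass without 50 mg/kg pool 2 (adjusted p = 0.139, edgeR).

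In the other direction *Ifitm1* had the largest difference, -4.85 (SE 0.63, adjusted p = 1.52e-08, edgeR). With saline it was 374 CPM in C0 and 358 CPM in the other cells, at 5 mg/kg 238 and 738 CPM and at 50 mg/kg 1.40 and 42.1 CPM. *Ifitm2* and *Ifitm3* followed with -2.36 and -2.67. The 3 genes also moved apart at the lower dose, by -1.79, -1.42 and -0.80, though for *Ifitm3* at 5 mg/kg the comparison with C1 gave -0.10 and did not pass, and without 5 mg/kg pool 3 the difference was -0.50. *Rrm2*, *Hist1h2ae*, *Birc5*, *Pclaf*, *Hist1h2bm*, *Stmn1* and *Hist2h2bb*, genes of dividing cells, had differences of -3.16 to -2.25. The other CD4+ cells held 26.9% to 32.2% cycling cells with saline and 35.0% to 40.9% at 50 mg/kg, and against C1 alone *Rrm2*, *Hist1h2ae*, *Stmn1* and *Hist2h2bb* did not pass and *Birc5* and *Pclaf* were at 0.05 and 0.10.

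**Figure D4:**
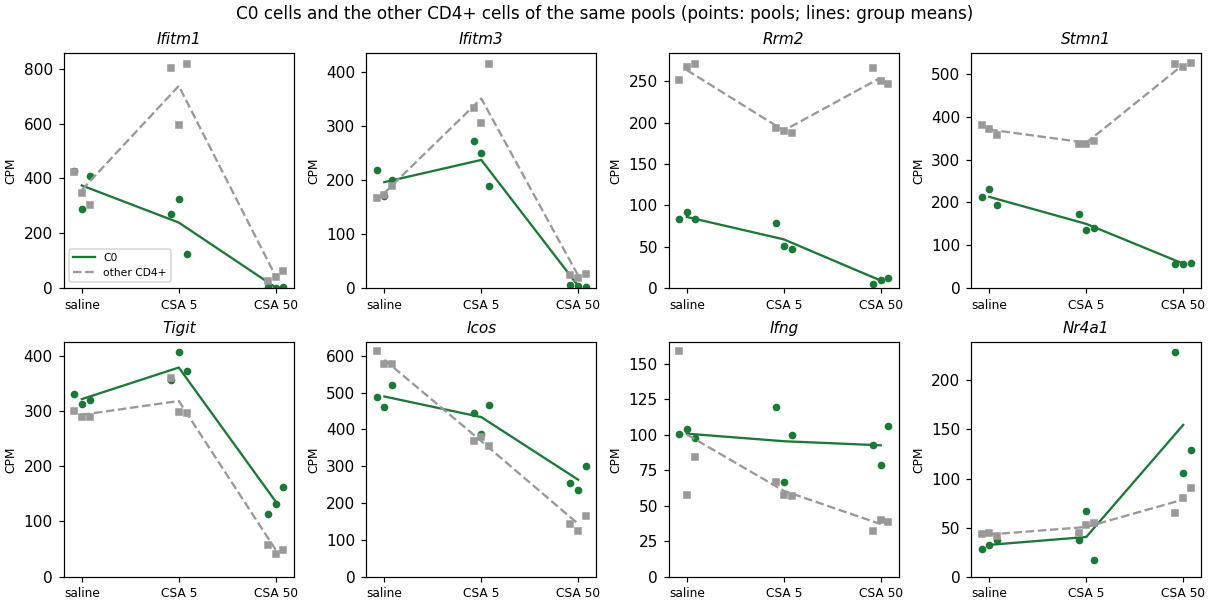
CPM without TMM scaling of 8 genes in C0 (green circles, solid lines) and in the other CD4+ cells of the same pools (grey squares, dashed lines), 3 pools per group, with lines through the group means and axes that start at 0. At 50 mg/kg *Ifitm1* was near 0 in C0, *Stmn1* was 56.6 CPM in C0 and 522 CPM in the other cells, and *Tigit*, *Icos* and *Ifng* were higher in C0 than in the other cells.

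The deposited module scores of C0 gave no trend that passed over the doses. The T stem-like score was -0.0977 in the saline group, -0.0790 at 5 mg/kg and -0.0866 at 50 mg/kg, the exhausted score 0.0912, 0.0822 and 0.0914, and the glycolysis score 0.0270, 0.0216 and 0.0367. The adjusted p of the exact trend test was 0.379 or more for each. The glycolysis score was 0.0255 to 0.0296 in the saline pools and 0.0347 to 0.0389 at 50 mg/kg with no overlap, and the exhausted score at 5 mg/kg, 0.0799 to 0.0853, lay below the 0.0902 to 0.0927 of the saline pools. Both comparisons reached the smallest p that 3 pools against 3 allow (p = 0.1, exact permutation test). The exhausted score of C0 was thus 0.0912 with saline and 0.0914 at 50 mg/kg while *Pdcd1* and *Tox* fell in the same cells.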

How the data were processed

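Single-cell 5′ RNA, hashtag and T cell receptor libraries of splenic T cells were measured in 3 groups of 3 pools. The deposited values were whole UMI counts for each gene in each cell and antibody counts, made by the authors with Cell Ranger and Seurat 3.0.0 on mm10 per the submitters' processing notes. The deposited fraction of mitochondrial UMIs and the module score values per cell were computed by the authors, from gene lists not given in the sources used here. Clusters, pools, TEa marks and clonotypes were used as deposited. Doublets were treated only by the authors' filters.

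Counts of C0 cells were summed per pool and tested with all 9 pools in 1 model by the quasi-likelihood test of edgeR 4.0.16 under R 4.3.3, after TMM scaling and the filterByExpr filter, with Benjamini-Hochberg adjustment at 0.05. C0 was compared with the other CD4+ cells in a fit with pool as a block, as an interaction. Shares, scores, clonality and V genes were compared with exact permutation tests. Pools of a group share a capture, so p-values cover only the spread between pools. Genes named by rule were the 10 largest rises and falls past the threshold with at least 50 CPM on average over the pools compared and no overlap of pools, the 10 largest differences of change in each direction and 20 genes higher in C0 in every pool, beside list members of at least 50 CPM in C0. *Bad*, *Csf2*, *Eomes*, *Fosb*, *Il21*, *Lilrb4a*, *Ly6c1* and *Malat1* lay outside this rule and were named after their values were seen. Some list members are not reported here. Members, lists and tests were chosen with earlier results of these data known. Positions are from GENCODE on GRCm38. Procedures were tested on simulated data. The alternatives were DESeq2 1.42.0, no filter, library size scaling, fits of 2 groups at a time, a block for the pool number, cells of at least 2000 UMIs, C1 as the comparator, TEa cells included and leaving out each pool. For the difference of change, cells of at least 2000 UMIs were added after seeing the data. CD8+ cells were not used here. Intervals cover counting error only.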

Additional observations from a re-analysis of the deposited data

Results flagged for a closer look

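Each result here is a difference between C0 and the other CD4+ cells in the log2 change against saline that passed the test of the difference itself (edgeR with pool as a block, adjusted p under 0.05). At 50 mg/kg the fall was larger or the rise smaller in C0 for *Ifitm1* by -4.85, *Ifitm3* by -2.67 and *Ifitm2* by -2.36. The genes of dividing cells in the same direction were *Rrm2* (-3.16), *Hist1h2ae* (-2.94), *Birc5* (-2.89), *Pclaf* (-2.84), *Hist1h2bm* (-2.52), *Stmn1* (-2.31) and *Hist2h2bb* (-2.25). The receptor and marker genes were *Il7r* (-1.77), *Il18r1* (-1.51), *Bhlhe40* (-0.74) and *Cxcr6* (-0.60).

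In the other direction at 50 mg/kg were *Tnfrsf9* (1.50), *Nr4a1* (1.48), *Tigit* (1.44), *Ifng* (1.33), *Icos* (1.24), *Ikzf2* (1.24), *Egr1* (1.20), *Btla* (1.15), *Smco4* (1.15), *Chchd10* (1.11) and *Ccl5* (1.11). At 5 mg/kg the difference was -1.79 for *Ifitm1*, -1.42 for *Ifitm2*, -0.80 for *Ifitm3* and 1.28 for *Ccl5*. The other CD4+ cells are a mixture whose clusters changed in share with dose, and its part in these values was not tested beyond the comparison with C1.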

How the results depend on the processing

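With cells of at least 2000 UMIs, the fall of the C0 share between saline and 50 mg/kg was -13.2 percentage points of all CD4+ cells, -41.4 of C0 and C1 cells and -14.9 of non-cycling cells, as large as with all cells, but no trend passed (adjusted p of 0.277, 0.221 and 0.277, exact trend test). The means were then 9.60%, 32.1% and 13% at 5 mg/kg and 12.3%, 31.8% and 18.6% at 50 mg/kg. Without 1 pool, the fall of the non-cycling share ranged from -16.6 to -12.2, and the trend did not pass without any of the saline pools or without 50 mg/kg pool 2 or 3 (adjusted p = 0.0607 each, exact trend test). The other shares moved by -14.7 to -11.9 and -44.0 to -39.7 percentage points and kept their calls without 1 pool. In cells of at least 2000 UMIs the median UMIs and genes per cell rose by 2767 and 462, and these trends passed (adjusted p = 0.00714 and 0.0107, exact trend test). The exhausted score difference of 0.000226 turned to -0.000127 in these cells and ranged from -0.000298 to 0.00121 without 1 pool. The share of C0 cells with a clonotype outside C0 moved by 0.693 percentage points, from -0.895 to 2.29 without 1 pool. Neither this share nor the exhausted score passed the exact trend test.

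The number of genes higher in C0 in every pool was 24 against the other CD4+ cells, 97 against C1 and 78 in the saline pools alone. At 5 mg/kg, 1245 genes passed in edgeR, 741 in DESeq2, 2099 with library size scaling and 2242 in cells of at least 2000 UMIs, and 690 to 1464 without 1 pool (829 without 5 mg/kg pool 2 and 690 without pool 3). At 50 mg/kg, 3766 to 4376 passed without 1 pool and 3185 in DESeq2. Between the doses, 2102 passed, 1399 in DESeq2 and 1045 in cells of at least 2000 UMIs, and 1707 to 2030 without 1 pool. For the difference between C0 and the other CD4+ cells, 134 and 729 genes passed at the 2 doses, and 61 and 399 in DESeq2. C1 as the comparator gave 330 and 1390 over 7940 genes. Only 27 of the 134 and 396 of the 729 passed there too, 386 of the latter in the same direction. Cells of at least 2000 UMIs gave 117 and 768 genes, among them 50 of the 134 and 681 of the 729. Without 1 pool, 54 to 140 and 444 to 863 genes passed. The lowest counts were without saline pool 2 at 5 mg/kg and without saline pool 1 at 50 mg/kg. At 5 mg/kg, 85 genes passed without saline pool 1 and 73 without saline pool 3. The cause of these moves was not tested.

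Of 169 gene results with 2503 values under alternatives, 2426 kept direction and call, 56 lost the call, 15 gained it and 6 turned sign. The sign turned for *Cxcr6* at 5 mg/kg (-0.084) and *Ifng* at 50 mg/kg (-0.14) with library size scaling, and against C1 for *Birc5* (0.047), *Pclaf* (0.10), *Tbx21* (0.14) and *Cxcr6* (0.084). Pools of different groups share only a pool number, since the correlation of same-numbered deviations was -0.015 to 0.0252. With pool number as a replicate block, 1193, 4180 and 2095 genes passed in the 3 dose comparisons, and *Bhlhe40* at 5 mg/kg (adjusted p = 0.0536, edgeR) and *Il12rb2* at 50 mg/kg (adjusted p = 0.0551, edgeR) did not. The 5 mg/kg pools held 317222 to 640898 UMIs.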
